A study of Homo sapiens with 6 samples.

Results

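The genes described here are neighbours on chromosome 8, from POLB in band 8p11 on the short arm, across the centromere, to CSPP1 in band 8q13 on the long arm. They were chosen by their signals in these arrays, because lower values of neighbouring genes had been seen in 2 cell lines derived from PC-3. The differences of both lines from PC-3 are therefore given as descriptions. Members past the threshold used for all genes are marked as called. Such calls rest on the values that chose the members and are no independent test. The list holds 45 genes. Of these, 43 had at least 1 probe set that the platform annotation gives to that gene alone, 129 probe sets in all, out of 13621 genes tested on the array. RPS20 and SGK3, a ribosomal protein and a kinase gene, had only probe sets shared with other gene symbols and were not analysed here.

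Total RNA was hybridised to short-oligonucleotide arrays, 2 for each of 3 human lines: the parental prostate carcinoma line PC-3, and TEM4-18 and TEM2-5. Per the labels, both TEM lines were obtained in separate experiments by letting PC-3 cells cross a cultured endothelial layer (human lung, microvascular) and keeping those that came through. All arrays came from cells grown in DMEM/F12 with serum, and no other treatment is labelled. Whether the 2 arrays per line stand for separate cultures is not labelled, so every error below measures the spread between arrays, which may be technical, and each TEM line is a single isolate. One TEM2-5 array is replicate 2 by its title but replicate 1 by its source name, and the title was followed.

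Values are linear signal intensities in the array's own units. A log2 fold change is a difference of mean log2(signal + 51.8), where 51.8 is the 20th percentile of all signals. This offset steadies low signals and makes the fold changes of weakly expressed genes too small. A gene was represented by its brightest probe set, and an adjusted p under 0.05 in limma was the threshold. Median array signals were 266 to 316. Of the PC-3 markers, KRT8 and KRT18, keratins of simple epithelia, gave 22688 to 60111 in PC-3, 6062 to 29511 in TEM4-18 and 9037 to 31304 in TEM2-5. EPCAM, an epithelial surface protein, gave 42292 to 44612 in PC-3, 1726 to 2035 in TEM4-18 and 10398 to 10854 in TEM2-5. The summed signal of 7 PC-3 markers was 257001 to 268864 in PC-3, 162131 to 164215 in TEM4-18 and 171272 to 186073 in TEM2-5. By limma, 5 of the 7 were called lower in each line (KRT8, KRT18, KRT19, EPCAM and PLAU), KLK3 in neither, and VIM, a mesenchymal filament protein, was called higher, from 45941 and 47129 in PC-3 to 62503 and 63490 in TEM4-18 and 65699 and 62581 in TEM2-5. The part of these differences in the results below was not tested. Of 12 endothelial markers, 5 lay above the filter on low signals, and of these 3 were called higher in TEM4-18 and 2 in TEM2-5, none lower. The defining markers CDH5, VWF, TEK and TIE1 gave 7.2 to 301 over all arrays, and the summed signal of the 12 was 2979 to 3362 in PC-3, 4114 to 5442 in TEM4-18 and 4385 to 4559 in TEM2-5. KDR, the main VEGF receptor, gave 146 to 306 in PC-3, 976 to 1870 in TEM4-18 and 1243 to 1259 in TEM2-5. ROBO4, an endothelial guidance receptor, was called higher in both lines as KDR was (0.73 and 0.78), ESAM, a junction protein, in TEM4-18 alone (1.40 against 0.71 in TEM2-5), and PECAM1, a junction protein too, in neither, at 505 to 1073 over all arrays. The summed signal of 10 fibroblast markers, 7 of them above the filter, was 9526 to 11160 in PC-3, 20479 to 23645 in TEM4-18 and 22422 to 25934 in TEM2-5, mostly that of COL1A1. COL1A1, a fibrillar collagen chain, gave 6869 to 8299, 18862 to 22388 and 18052 to 21920. The other fibroblast markers did not follow it: 5 of the 7 tested lay below 0 in TEM4-18, with a median of -0.70, 2 called lower and 1 higher, while in TEM2-5 5 of the 7 lay above 0, with a median of 0.64 and 2 called higher. LUM, a matrix proteoglycan, went from 473 and 760 in PC-3 to 3.0 and 42.3 in TEM4-18 and 198 and 316 in TEM2-5. PDGFRA, a growth factor receptor, went from 1062 and 889 to 685 and 434 in TEM4-18 and 2904 and 2170 in TEM2-5. The part of these markers in the results was not tested.

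Genes that lie side by side on a chromosome share its copy number and may share a chromatin domain, so that their transcripts can change together although their products have unrelated jobs. The stretch from POLB to CSPP1 is such a mixed neighbourhood, with genes for DNA repair and replication, membrane traffic, mitochondria, signalling and transcription. Expression arrays measure RNA only, and neither copy number nor chromatin was measured here.

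Along the stretch the differences were not uniform. In TEM4-18, 31 of 43 genes lay below PC-3, with a median log2 fold change of -0.38. Past the threshold were 18 lower and 3 higher genes, where 16.0% of all tested genes were called lower and 13.3% higher. In TEM2-5, 28 of 43 lay below PC-3, with a median of -0.16, and 13 were called lower and 3 higher, against 10.1% and 8.98% of all tested genes. The medians over all tested genes were -0.038 in TEM4-18 and -0.024 in TEM2-5. Both comparisons use the same PC-3 arrays. Calls in TEM2-5 depended on single arrays: 5 members were called lower without the first PC-3 array, 6 without the first TEM2-5 array and 7 without the second. All 13 genes called lower in TEM2-5 were among the 18 of TEM4-18 (9.10% of all tested genes were called lower in both lines), and PRKDC and UBE2V2 were called higher in both (8.01%). Both TEM4-18 arrays lay below both PC-3 arrays for 25 members and above them for 11, where 34.8% and 28.3% of all genes did so. For TEM2-5 the counts were 24 and 11, against 32.2% and 27.7%.

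Read in chromosome order, the members were divided into 4 blocks, whose borders were placed after the values were seen. The 8 genes from POLB to HGSNAT, on the short arm, had medians of -0.097 in TEM4-18 and 0.015 in TEM2-5. The 4 genes from CEBPD to UBE2V2, next to the centromere on the long arm, had medians of 0.37 and 0.30. The 19 measured genes from PCMTD1 to CHD7 had medians of -0.84 and -0.59, and held 15 of the 18 genes called lower in TEM4-18 and 10 of the 13 in TEM2-5. Without the first PC-3 array or the first TEM2-5 array, 5 of these 19 were called lower in TEM2-5, with medians of -0.56 and -0.43. The 12 measured genes from ASPH to CSPP1 had medians of -0.042 and -0.015. The label of a coordinated fall from 8p11 to 8q13 thus describes the PCMTD1 to CHD7 block, and neither the short-arm genes nor those beyond CHD7.

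**Figure D1:**
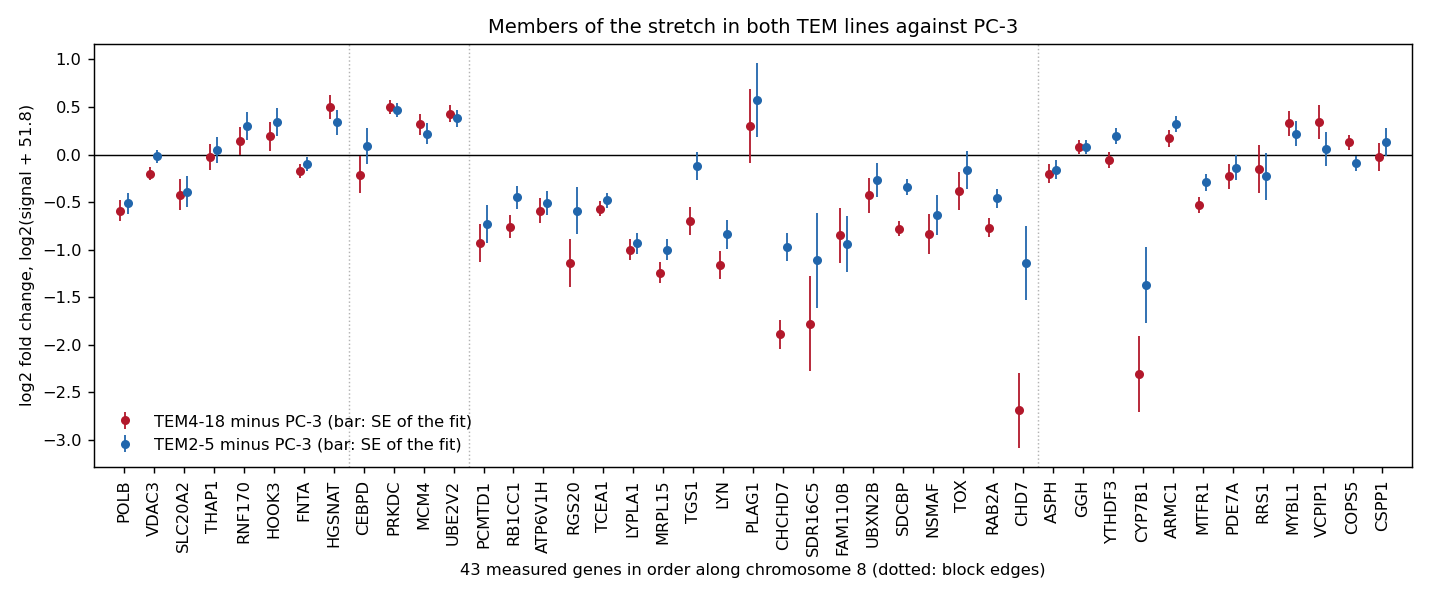
Log2 fold change (points) with the standard error of the fit (bars) of the 43 measured genes in chromosome order, for TEM4-18 and TEM2-5 against PC-3. From PCMTD1 to CHD7, 18 of 19 genes lie below 0 in both lines, PLAG1 being the other; dotted lines mark the block borders.

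In the PCMTD1 to CHD7 block, genes of unlike function were lower, by differing amounts. Their mean signals ran from 11.7% of the PC-3 mean (CHD7) to 130% (PLAG1) in TEM4-18, and from 39.9% to 167% in TEM2-5. Median signals were 56.5% of the PC-3 mean in TEM4-18 and 64.7% in TEM2-5. Both arrays of each TEM line lay below both PC-3 arrays for 16 of the 19 genes, and for 25.7% of all tested genes. For 17 of the 19, the TEM2-5 mean lay between those of TEM4-18 and PC-3.

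MRPL15, a protein of the large subunit of the mitochondrial ribosome, gave 12614 and 14631 on the PC-3 arrays, 5260 and 6182 on those of TEM4-18, and 6474 and 7094 on those of TEM2-5. Every TEM array was below every PC-3 array, and the log2 fold changes were -1.24 ± 0.11 (SE, n = 2 arrays per line) and -1.0 ± 0.11. LYPLA1, a thioesterase that removes palmitate from proteins, gave 14564 and 13694 in PC-3, 6845 and 7230 in TEM4-18, and 6562 and 8294 in TEM2-5. The TEM lines overlapped each other there, and their means were 49.8% and 52.6% of the PC-3 mean. TCEA1, the elongation factor that rescues stalled RNA polymerase II, differed less, with 16548 and 16449 in PC-3, 10672 and 11497 in TEM4-18, and 11437 and 12215 in TEM2-5, or log2 fold changes of -0.57 ± 0.077 and -0.48 ± 0.077.

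LYN, a Src family tyrosine kinase best known from blood cells, gave 1748 and 1876 in PC-3, 764 and 806 in TEM4-18, and 979 and 998 in TEM2-5. The 3 lines did not overlap, and the log2 fold changes were -1.16 ± 0.15 and -0.84 ± 0.15. The other 2 LYN probe sets gave -1.54 and -1.45 in TEM4-18 and -1.13 and -1.62 in TEM2-5. RGS20, a regulator that shortens G protein signals, gave 713 and 955 in PC-3, 383 and 314 in TEM4-18, and 446 and 630 in TEM2-5. It was past the threshold in TEM4-18 alone, at -1.14 ± 0.25 against -0.59 ± 0.25 in TEM2-5.

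Genes of autophagy, the lysosome and vesicle traffic were part of the same run. RB1CC1 encodes FIP200, the scaffold of the kinase complex that starts autophagy, and gave 5097 and 4103 in PC-3, 2750 and 2606 in TEM4-18, and 3235 and 3430 in TEM2-5. Its brightest probe set was below PC-3 on every TEM array, at -0.76 ± 0.12 and -0.45 ± 0.12, but its other probe set was at 0.04 and 0.01. That other set is an x_at set, which can read related sequences, and whether it did was not tested. ATP6V1H, a subunit of the proton pump that acidifies lysosomes, went from 3653 and 3225 in PC-3 to 2037 and 2509 in TEM4-18 and 2411 and 2390 in TEM2-5. RAB2A, a small GTPase of traffic between endoplasmic reticulum and Golgi, went from 8050 and 7844 to 4621 and 4643 in TEM4-18 and 5307 and 6271 in TEM2-5. No TEM array reached a PC-3 array for either gene, and 5 of the 6 tested RAB2A probe sets were below 0 in TEM4-18, x_at sets among them.

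SDCBP, which encodes syntenin-1, an adaptor of syndecans in exosome formation, gave 17487 and 15508 in PC-3, 9692 and 9508 in TEM4-18, and 12855 and 13079 in TEM2-5. CHCHD7, a small protein with a twin CHCH fold, gave 2798 and 3501 in PC-3, 801 and 818 in TEM4-18, and 1541 and 1602 in TEM2-5. For both genes the 3 lines were fully separated, with TEM4-18 lowest. CHD7, a chromatin remodeller mutated in CHARGE syndrome, had the lowest log2 fold change of all members in TEM4-18, -2.69 ± 0.39, and -1.14 ± 0.39 in TEM2-5. Its signals were 937 and 948 in PC-3, 60.4 and 161 in TEM4-18, and 584 and 268 in TEM2-5. The low TEM4-18 signals are close to the offset of 51.8, and the difference there is understated. The second tested CHD7 probe set gave -3.42 in TEM4-18 and -1.73 in TEM2-5, where it was called lower and the brightest was not.

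PCMTD1, related to the enzyme that repairs damaged aspartate residues, went from 1290 and 1003 in PC-3 to 647 and 507 in TEM4-18 and 686 and 646 in TEM2-5. NSMAF, an adaptor between the TNF receptor and neutral sphingomyelinase, went from 3370 and 3084 to 1419 and 2226 in TEM4-18 and 1703 and 2475 in TEM2-5, with the 2 arrays of each TEM line far apart. Its brightest probe set was called lower in TEM4-18 alone, and another one in TEM2-5 (-0.73). TGS1, the enzyme that caps small nuclear RNAs with trimethylguanosine, was at 1533 and 1570 in PC-3, 1045 and 835 in TEM4-18, and 1434 and 1408 in TEM2-5. On this brightest probe set it was well below PC-3 in TEM4-18 and only slightly so in TEM2-5. Its other tested set was at -0.13 and -0.07 and was called in neither line. SDR16C5, a retinol dehydrogenase, went from 405 and 461 to 181 and 33.8 in TEM4-18 and 153 and 193 in TEM2-5. It was called lower in TEM4-18 with a large error, -1.78 ± 0.50.

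The remaining members of this block did not pass the threshold in either line. FAM110B gave -0.85 ± 0.29 in TEM4-18 and -0.94 ± 0.29 in TEM2-5, UBXN2B, a cofactor of the p97 ATPase, -0.43 ± 0.18 and -0.27 ± 0.18, and TOX, a nuclear factor of T cell development, -0.38 ± 0.20 and -0.16 ± 0.20. PLAG1, a zinc finger factor of fetal growth, was the one gene above 0, at 0.30 ± 0.39 and 0.57 ± 0.39. Its signals were low, 178 and 138 in PC-3, 196 and 216 in TEM4-18, and 321 and 207 in TEM2-5, close to the low-signal filter at a mean of 174. Over the block, 37 of 40 tested probe sets were below 0 in TEM4-18, and 37 were in TEM2-5.

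**Figure D2:**
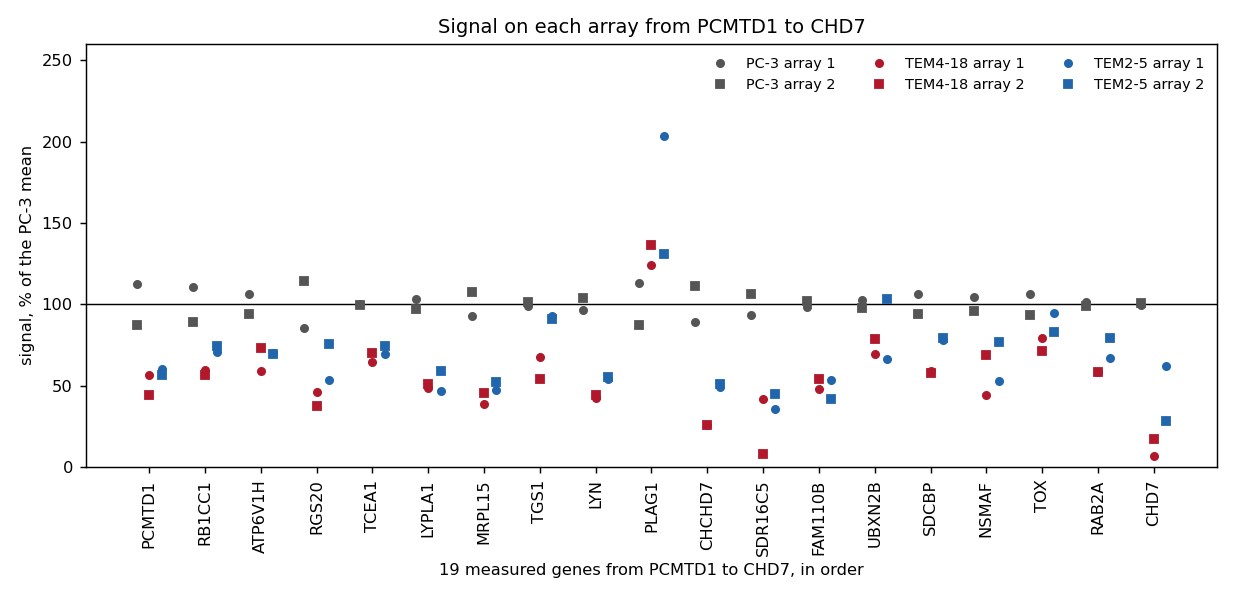
Signal of each of the 6 arrays as a percentage of the PC-3 mean (vertical axis) for the 19 measured genes from PCMTD1 to CHD7 in order, with circles for array 1 and squares for array 2 of each line. For 16 of the 19 genes all TEM arrays lie below both PC-3 arrays, and PLAG1 lies above them.

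Just before this block the direction was opposite. PRKDC, the catalytic subunit of DNA-dependent protein kinase, which joins broken DNA ends, gave 11998 and 11789 in PC-3, 16313 and 17347 in TEM4-18, and 16061 and 16833 in TEM2-5. All TEM arrays were above PC-3, with log2 fold changes of 0.50 ± 0.073 and 0.47 ± 0.073. UBE2V2, which works with UBE2N to build lysine-63 ubiquitin chains, went from 11251 and 11330 to 14658 and 15810 in TEM4-18 and 13628 and 15948 in TEM2-5. MCM4, a subunit of the replicative helicase, was between 9303 and 10161 in PC-3 and between 10496 and 13416 in the TEM lines, and did not pass the threshold at 0.32 ± 0.11 and 0.22 ± 0.11. CEBPD, a transcription factor of acute inflammation, overlapped between lines, at -0.21 ± 0.19 and 0.089 ± 0.19.

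On the short arm, POLB was the one gene whose brightest probe set was called lower in either line. It encodes DNA polymerase beta, which fills gaps in base excision repair, and gave 6027 and 5476 in PC-3, 3871 and 3729 in TEM4-18, and 4273 and 3774 in TEM2-5, that is -0.59 ± 0.11 and -0.51 ± 0.11. HGSNAT, a lysosomal acetyltransferase of heparan sulfate breakdown, was higher on its brightest probe set. That set gave 1655 and 2027 in PC-3, 2656 and 2582 in TEM4-18, and 2259 and 2419 in TEM2-5. It passed the threshold in TEM4-18 alone (0.50 ± 0.13 against 0.34 ± 0.13). The other tested HGSNAT sets were at -0.05 and 0.03 in TEM4-18 and 0.10 and -0.06 in TEM2-5. VDAC3, a pore of the outer mitochondrial membrane, gave -0.20 ± 0.069 and -0.018 ± 0.069 on its brightest probe set, while a second one, at 12378 and 12548 in PC-3, was called lower in both lines (-0.27 and -0.29). FNTA, the shared alpha subunit of farnesyltransferase, gave -0.17 ± 0.075 and -0.10 ± 0.075. SLC20A2, a phosphate transporter, gave -0.42 ± 0.16 and -0.39 ± 0.16 on its brightest probe set, while a second probe set was called higher in both lines, at 0.78 and 0.73. On the brightest probe sets, the zinc finger gene THAP1, the ubiquitin ligase gene RNF170 and HOOK3 lay between -0.026 and 0.34 in both lines. The other RNF170 sets were below 0, at -0.26 and -0.54 in TEM4-18 and -0.33 and -0.34 in TEM2-5. HOOK3 links cargo to microtubules, and its other sets ran from -0.33 to 0.61 in TEM4-18 and -0.15 to 0.41 in TEM2-5.

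Beyond CHD7, 2 genes were called lower in both lines, CYP7B1 and MTFR1, and 1 was called higher. CYP7B1, an oxysterol hydroxylase of bile acid synthesis, gave 475 and 524 in PC-3, 59.4 and 59.8 in TEM4-18, and 162 and 160 in TEM2-5. These are 11.9% and 32.3% of the PC-3 mean, and the log2 fold changes of -2.31 ± 0.40 and -1.37 ± 0.40 understate the difference because the TEM4-18 signals are near the offset. MTFR1, a regulator of mitochondrial fission, gave 8297 and 7974 in PC-3, 5687 and 5566 in TEM4-18, and 6923 and 6410 in TEM2-5. ARMC1, a mitochondrial outer membrane protein between them, was called higher in TEM2-5 alone, at 0.32 ± 0.087 against 0.17 ± 0.087 in TEM4-18.

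The brightest probe sets of the other members beyond CHD7 did not pass in either line. ASPH, an aspartyl hydroxylase with several splice forms, gave -0.20 ± 0.10 and -0.16 ± 0.10 on its brightest probe set, with another of its 9 tested probe sets called higher in both lines (0.82 and 0.53) and a further one in TEM4-18 alone (0.29). GGH, which trims folate polyglutamates, gave 0.083 ± 0.075 and 0.080 ± 0.075, and COPS5, the catalytic subunit of the COP9 signalosome, 0.13 ± 0.078 and -0.091 ± 0.078. YTHDF3, a reader of methylated adenosine in RNA, gave -0.059 ± 0.084 and 0.19 ± 0.084, and its second probe set was called lower in TEM4-18 alone (-0.42 against -0.16 in TEM2-5). PDE7A, a cyclic AMP phosphodiesterase, was at -0.23 ± 0.13 and -0.14 ± 0.13, and MYBL1, a MYB family factor, at 0.33 ± 0.13 and 0.22 ± 0.13. The ribosome assembly factor RRS1, the deubiquitinase VCPIP1 and the centrosomal CSPP1 had errors of 0.15 to 0.25 and differences of -0.23 to 0.34.

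Of the 129 probe sets of the members, 109 passed the filter on low signals. Beside the 43 brightest sets there were 66 others, of which 46 had the sign of the brightest set in TEM4-18 and 41 in TEM2-5. Of the 21 other sets of genes called lower in TEM4-18, 19 were below 0 and 11 were called lower themselves. In TEM2-5 the numbers were 14 and 7 of 16. ASPH and SLC20A2 were the members with a probe set called in the direction opposite to the brightest.

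A further 17 tested genes with a single-gene probe set lie between POLB and CSPP1 and are not on the list. In TEM4-18, 1 was called lower and 2 higher, where 16.0% and 13.3% of all tested genes were. In TEM2-5 1 was called higher, against 8.98% of all tested genes. The 5 of them that lie between PCMTD1 and CHD7 (OPRK1, LINC02984, TMEM68, LOC101929398 and TOX-DT) were all below 0 in both lines. Over all tested genes, 6080 of 13621 were. Of these 5, TMEM68 alone was called, in TEM4-18. The arrays of LOC101929398 and TOX-DT overlapped those of PC-3 in both lines. TMEM68, between MRPL15 and TGS1, gave 1352 and 1327 in PC-3, 578 and 790 in TEM4-18, and 904 and 853 in TEM2-5, a log2 fold change of -0.93 ± 0.18 in TEM4-18 (limma adjusted p = 0.00347) and -0.58 ± 0.18 in TEM2-5 (adjusted p = 0.0538). SNAI2, a repressor of epithelial genes that lies between UBE2V2 and PCMTD1, gave 4783 and 5670 in PC-3, 4591 and 6641 in TEM4-18, and 6835 and 9658 in TEM2-5. Its arrays overlapped between PC-3 and TEM4-18 and lay above PC-3 in TEM2-5, and it was called higher in TEM2-5 (0.64 ± 0.19, limma adjusted p = 0.0427). SMIM19, a small membrane protein gene near THAP1, was called higher in TEM4-18 (0.46 ± 0.11, limma adjusted p = 0.0116).

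The 20 nearest tested genes on each side were examined because the borders of the list were set with these values known. On the POLB side, 2 were called lower and 6 higher in TEM4-18, and 2 lower and 4 higher in TEM2-5. IKBKB, a kinase of NF-kappaB signalling and the nearest neighbour, was at 0.074 ± 0.14 and 0.23 ± 0.14, and IKBKB-DT at -0.88 ± 0.33 and -0.75 ± 0.33, past the threshold in neither line. PLAT, tissue plasminogen activator, the third tested gene outward, was at -3.15 ± 0.096 (limma adjusted p = 9.46e-09) and -0.66 ± 0.096 (adjusted p = 0.00112). On the CSPP1 side, 6 were called lower and 1 higher in TEM4-18, and 6 lower in TEM2-5. Shares over all tested genes were 16.0% lower and 13.3% higher in TEM4-18, and 10.1% and 8.98% in TEM2-5. For TEM2-5, the 12 flanking genes called became 6 without the first PC-3 array and 7 without either TEM2-5 array. The first gene outside, ARFGEF1, an exchange factor for ARF GTPases, gave 10064 and 10727 in PC-3, 5166 and 5151 in TEM4-18, and 5047 and 6574 in TEM2-5, and was called lower in both lines (-1.0 ± 0.12 and -0.85 ± 0.12). The transporter gene SLCO5A1 followed at -1.84 ± 0.38 and -1.38 ± 0.38, and SDCBPP2, a pseudogene of SDCBP whose x_at probe set may read SDCBP itself, at -0.47 ± 0.28 and -0.12 ± 0.28.

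The 493 tested genes placed on chromosome 8 hold 42 members, and SDR16C5 of the PCMTD1 to CHD7 block is not among them. Over these genes, a running median of 11 genes reached its lowest value in windows centred in that block in both lines. In TEM4-18 it was -0.93 in each window centred from ATP6V1H to TGS1, the first of which runs from SNAI2 to TMEM68. In TEM2-5 it was -0.69 in each window centred from TGS1 to PLAG1, the first of which runs from RGS20 to FAM110B. Elsewhere on the chromosome the lowest running median was -0.83 in TEM4-18 and -0.45 in TEM2-5. Lower signals were not limited to this block: of 274 tested genes beyond CSPP1, 87 were called lower and 30 higher in TEM4-18, and 75 and 19 in TEM2-5, with medians of -0.17 and -0.14. Of 160 tested genes on the other side of POLB, 21 were called lower and 22 higher in TEM4-18, and 15 and 13 in TEM2-5. Over all tested genes, 16.0% were called lower and 13.3% higher in TEM4-18, and 10.1% and 8.98% in TEM2-5.

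**Figure D3:**
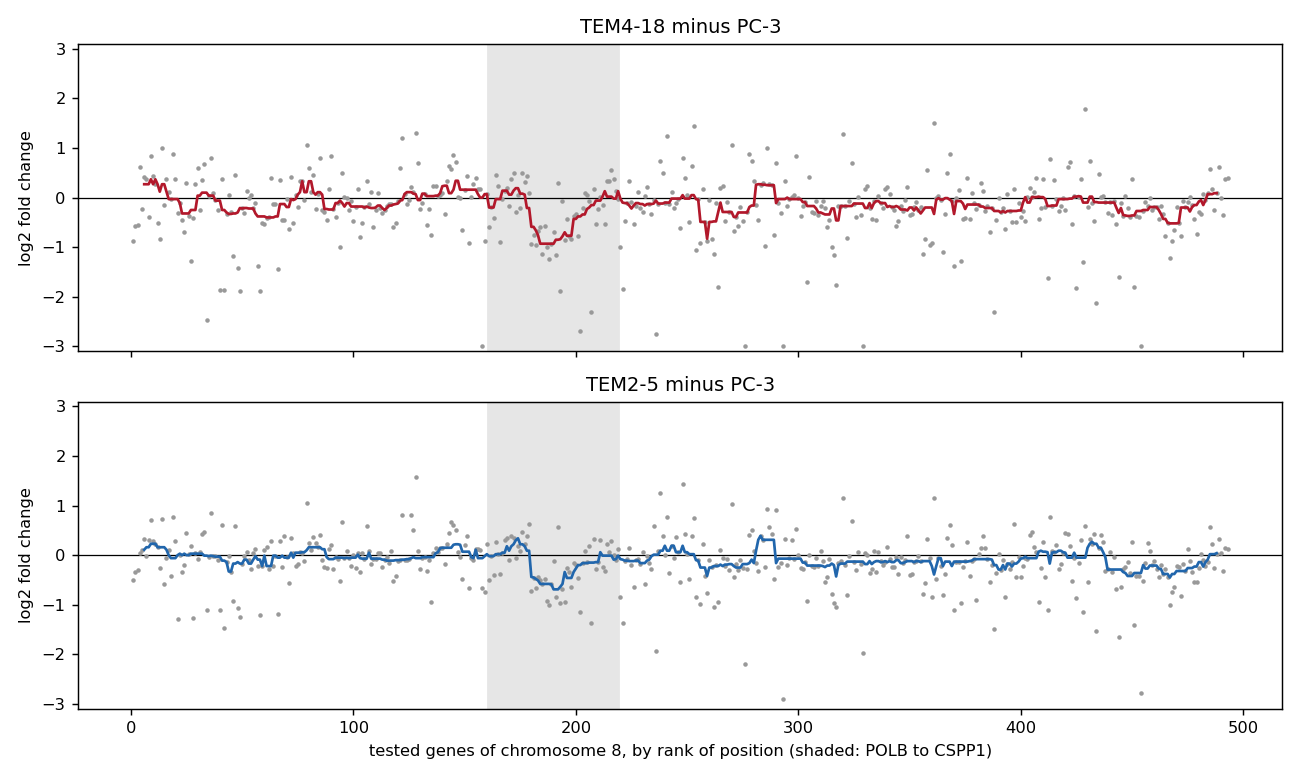
Log2 fold change against PC-3 of 493 tested genes of chromosome 8 in order of position (grey points) with the running median of 11 genes (line), for TEM4-18 above and TEM2-5 below; 5 genes of TEM4-18 outside the plotted range are drawn at the edge. The shaded stretch from POLB to CSPP1 holds the lowest running medians, -0.93 and -0.69, in its middle.

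TEM4-18 and TEM2-5 were compared directly, a contrast that the choice of members did not name. It uses the same TEM arrays on which the members were chosen for low values. The counts and medians of members given here are therefore descriptions and no independent test. Over all tested genes, more were called lower against PC-3 in TEM4-18 (2183) than in TEM2-5 (1370). TEM4-18 was below TEM2-5 for 33 of 43 members, or 76.7%, with a median difference of -0.16, where 52.3% of all tested genes lay below and their median was -0.011. The running median of 11 genes for this difference was lowest off the stretch, at -0.29 in the window from LPL to BMP1 on chromosome 8. In the PCMTD1 to CHD7 block, whose borders were placed with the values seen, TEM4-18 was below TEM2-5 for 18 of 19 genes, with a median of -0.27. Few single genes could be separated: CHCHD7 and SDCBP were called lower in TEM4-18, against 2.26% of all tested genes (2.75% in either direction), and no member was called higher by limma (0.492% of all genes), with 11 lower and 1 higher at an unadjusted p under 0.05, where 9.17% and 5.64% of all genes were. CHCHD7 differed by -0.91 ± 0.15 (limma adjusted p = 0.0100) and SDCBP by -0.43 ± 0.081 (adjusted p = 0.0253). For CHD7 the difference of -1.55 ± 0.39 did not pass (adjusted p = 0.0915), nor did those of TGS1 (-0.58 ± 0.15, adjusted p = 0.108) and RAB2A (-0.31 ± 0.10, adjusted p = 0.201). Both TEM4-18 arrays lay below both TEM2-5 arrays for 19 members and above them for 3, where 23.9% and 20.4% of all genes did so. The difference of CHCHD7 lost its call without either TEM2-5 array (adjusted p = 0.0787 and 0.0925), and that of SDCBP without any 1 of the 4 TEM arrays (adjusted p from 0.0866 to 0.159).

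**Figure D4:**
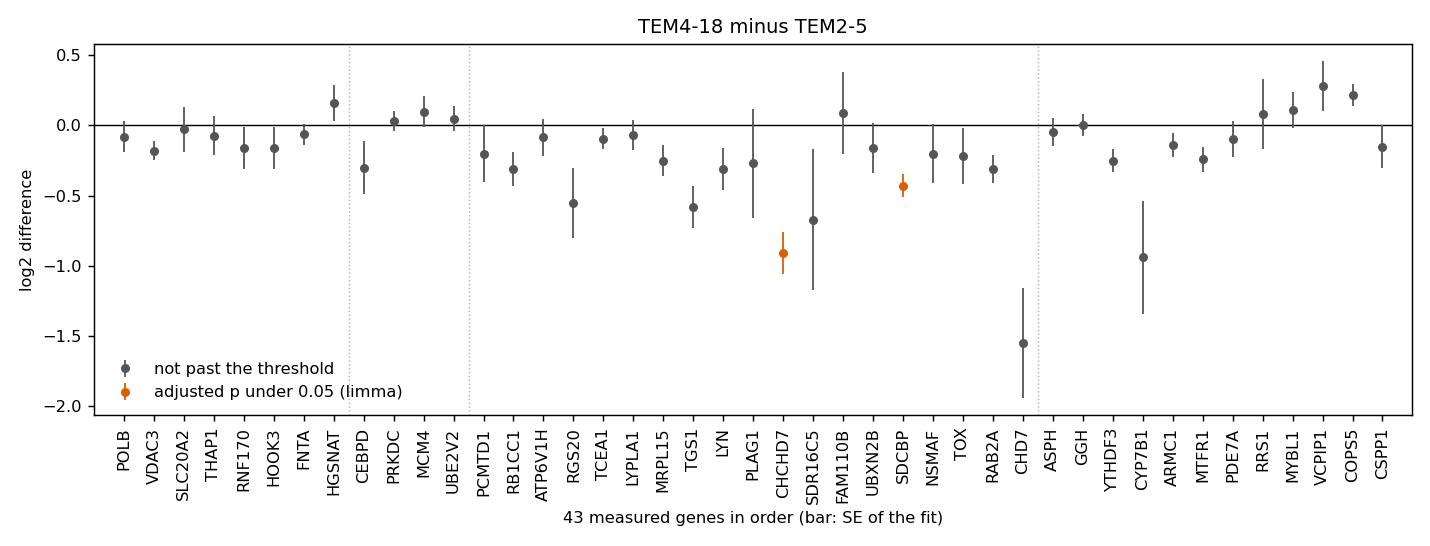
Log2 difference TEM4-18 minus TEM2-5 (points) with the standard error of the fit (bars) for the 43 measured genes in order. TEM4-18 lies below TEM2-5 for 33 genes, and CHCHD7 and SDCBP, at -0.91 and -0.43, are the ones past the threshold.

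The products of several members work in complexes whose other subunits are encoded elsewhere, which allowed a comparison with genes that the rule did not use. Of 74 tested complex partners, 16 were called lower and 8 higher in TEM4-18, and 12 lower and 5 higher in TEM2-5, with medians of -0.040 and -0.098. These include 15 small-subunit ribosomal proteins listed as partners of RPS20, a member without a value here. All 15 lay below 0 in both lines, with 6 called lower in TEM4-18 and 3 in TEM2-5. In all, 29.3% of tested genes were called in either direction in TEM4-18 and 19.0% in TEM2-5. Without the first PC-3 array the partners called were 12 in TEM4-18, and they were 14 without the first TEM4-18 array. For TEM2-5 they were 9 to 11 without any 1 PC-3 or TEM2-5 array.

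Partners of PRKDC in end joining did not share its higher signal. The Ku subunits XRCC5 and XRCC6, which load the kinase on DNA ends, were at -0.059 and 0.0027 in TEM4-18 and -0.13 and -0.023 in TEM2-5, none past the threshold. LIG4, the ligase of the same pathway, fell by 0.99 and 0.71 on the log2 scale (limma adjusted p = 0.00193 and 0.0201). The helicase subunits MCM2, MCM3, MCM6 and MCM7 lay between -0.14 and 0.16 without passing, and MCM5 rose in TEM4-18 (0.37, adjusted p = 0.0422). Among other replication genes listed with them, GINS3 was called lower in both lines (-0.69 and -0.49) and GINS1 higher in TEM4-18 (0.30). Of the base excision repair genes around POLB, OGG1, the glycosylase for oxidised guanine, rose by 0.97 ± 0.12 and 0.80 ± 0.12 (adjusted p = 0.000170 and 0.00120), and the others did not pass.

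In the COP9 signalosome, the complex that removes NEDD8 from cullins, COPS3 fell from 21936 and 22336 in PC-3 to 8774 and 10608 in TEM4-18 and 9324 and 10397 in TEM2-5. That is -1.19 ± 0.099 and -1.16 ± 0.099 (limma adjusted p = 1.22e-05 and 4.2e-05), while COPS7B and COPS8 rose in both lines and the member COPS5 passed in neither. ULK2, a kinase of the autophagy complex held by RB1CC1, fell by 1.01 and 1.06 on the log2 scale (adjusted p = 0.000380 and 0.000598), and ULK1, ATG13 and ATG101 did not pass. ATP6V1D rose, at 1.26 ± 0.075 and 0.93 ± 0.075 (adjusted p = 1.14e-06 and 3e-05), opposite to its co-subunit ATP6V1H. FNTB, the beta subunit that pairs with FNTA, rose by 1.12 ± 0.16 and 0.84 ± 0.16 (adjusted p = 0.000441 and 0.00461). RABGGTA and RABGGTB, prenyltransferase genes of the same list, were called lower in both lines. Of 16 large-subunit proteins of the mitochondrial ribosome, 3 were called lower in each line, where 16.0% and 10.1% of all tested genes were. In TEM4-18 11 of the 16 lay below 0, and 14 did in TEM2-5, against 53.7% and 52.8% of all tested genes. Their medians were -0.091 and -0.13, beside -1.24 and -1.0 for MRPL15.

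Of 39 tested paralogs of members, 7 were called lower and 10 higher in TEM4-18, and 6 lower and 8 higher in TEM2-5, with medians of 0.049 and -0.080. Among all tested genes, 16.0% were called lower and 13.3% higher in TEM4-18, and 10.1% and 8.98% in TEM2-5. Of the 4 tested relatives of LYN, FYN and LCK did not pass. SRC rose from 2746 and 2796 in PC-3 to 7609 and 6639 in TEM4-18 and 5813 and 5249 in TEM2-5 (1.34 ± 0.11 and 0.98 ± 0.11, limma adjusted p = 8.08e-06 and 0.000180), and YES1 rose by 0.59 and 0.53. TCEA2 and TCEA3, relatives of TCEA1, rose too, TCEA2 by 1.79 ± 0.15 and 1.54 ± 0.15 (adjusted p = 1.26e-05 and 9.14e-05). RGS17, a close relative of RGS20, rose by 1.98 ± 0.22 and 1.48 ± 0.22 (adjusted p = 9.92e-05 and 0.00133). PCMTD2 rose by 0.66 and 0.68 (adjusted p = 0.000662 and 0.00115), and CYP27A1, another sterol hydroxylase, by 1.43 ± 0.40 and 1.64 ± 0.40 (adjusted p = 0.0230 and 0.0189).

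Paralogs of other members fell. HOOK1, which like HOOK3 ties vesicles to microtubules, went from 2134 and 2103 in PC-3 to 8.34 and 13.3 in TEM4-18 and 329 and 314 in TEM2-5 (limma adjusted p = 6.6e-07 and 0.000208), while the member HOOK3 passed in neither line. FAM110C went from 1221 and 1023 to 12.9 and 5.29 in TEM4-18 and 308 and 125 in TEM2-5 (adjusted p = 4.93e-05 and 0.00613). VDAC1, HOOK2, CEBPB and PLAGL1 were also called lower in both lines. VDAC2, SLC20A1, RAB2B, LYPLA2 and the CHD7 relatives CHD6, CHD8 and CHD9 did not pass in either line.

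**Figure D5:**
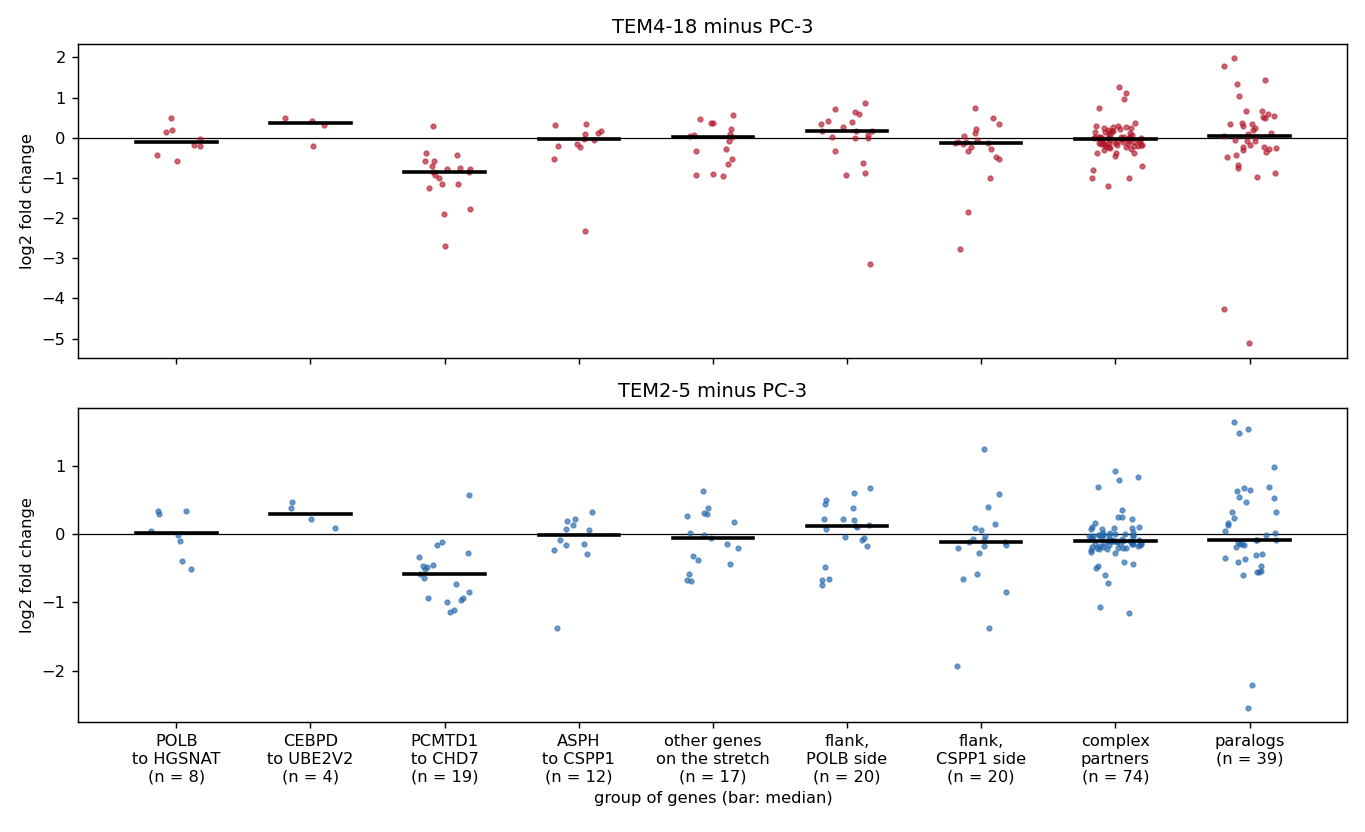
Log2 fold change against PC-3 of single genes (points) and their median (bar) in the 4 blocks of members, the other genes on the stretch, the flanking genes, the complex partners and the paralogs, for TEM4-18 above and TEM2-5 below. The PCMTD1 to CHD7 block has medians of -0.84 and -0.59, and the partners of -0.040 and -0.098.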

How the data were processed

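RNA of PC-3, TEM4-18 and TEM2-5, 2 arrays each, was measured on short-oligonucleotide arrays. The authors deposited MAS5 signal intensities on a linear scale, per the submitters' processing notes, with each array scaled to one trimmed mean (1500 after trimming 2%, computed from the files). The software version and genome build are not given in the sources used here, so no coordinates are printed and gene order follows a RefSeq table (GRCh38.p14). Scaling to one mean makes signals relative within an array. The number of arrays limits the precision.

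From these values log2(intensity + 51.8) was taken, and 32768 probe sets with a mean over the 6 arrays above 174, the 40th percentile, were tested with limma 3.58.1 in R 4.3.3 (lmFit and eBayes with trend, all 6 arrays in one fit with 3 residual degrees of freedom). P-values were adjusted by Benjamini-Hochberg over all tested probe sets, with a threshold of 0.05. Of 54675 probe sets, 41097 carry 1 gene symbol in the platform annotation, 1801 carry more and 11777 carry none. The probe set with the highest mean among those of 1 symbol stood for the gene. The fit was tested on simulated data.

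The genes named were all members, the 3 nearest tested genes on each side, unlisted genes on the stretch, partners and paralogs past the threshold in both lines by at least 2-fold in one direction, and direct partners or paralogs of members described in full. A few other called partners were named beside those of the same list. The members, lists and blocks were chosen with earlier results of these data known. The alternatives varied the offset, the filter, the variance trend, the scaling, the choice of probe set, a replicate block and the arrays left out.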

Additional observations from a re-analysis of the deposited data

Results flagged for a closer look

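Among the members, 2 differed between the TEM lines by a test of the difference itself. CHCHD7 was lower in TEM4-18 than in TEM2-5, with a log2 difference of -0.91 ± 0.15 (SE, n = 2 arrays per line, limma adjusted p = 0.0100), at 801 and 818 against 1541 and 1602. Its second probe set, 478 and 461 against 438 and 634, differed by -0.15 ± 0.22 and did not pass (adjusted p = 0.852). SDCBP was lower in TEM4-18 by a log2 difference of -0.43 ± 0.081 (limma adjusted p = 0.0253), at 9692 and 9508 against 12855 and 13079. For each gene both TEM4-18 arrays lay below both TEM2-5 arrays.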

How the results depend on the processing

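The number of members called lower in TEM4-18 was 18 and ranged from 14 to 19 over the alternatives, and each of the 21 members called there kept its sign under every alternative that tested it, with 10 called in each of those. In TEM2-5, the 16 called members kept their sign in the same way and 4 were called in each. SDR16C5, CHD7 and CYP7B1 were tested in 13 of the 14 alternatives, having no value under the stricter filter. With eBayes run without a variance trend, the members TEM2-5 against PC-3 count of 13 became 6, that of TEM4-18 against TEM2-5 became 0 from 2, complex partners became 9 and 7 from 24 and 17, paralogs in TEM2-5 became 8 from 14, and flanking genes became 7 and 3 from 15 and 12. With the mean of a gene's probe sets, the members in TEM2-5 became 7, those between TEM lines 1, complex partners 15 and 10, and paralogs in TEM2-5 9. Without a filter on low signals, the members between TEM lines became 1 and complex partners in TEM4-18 became 15. Leaving out 1 array in turn gave 14 to 19 members in TEM4-18, 5 to 14 in TEM2-5, 0 to 2 between TEM lines, 12 to 22 and 9 to 14 complex partners, 14 to 17 and 10 to 14 paralogs, and 10 to 14 and 6 to 11 flanking genes. In these fits a lone array is assumed to vary like the others. The cause of these shifts was not tested.

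CHCHD7 TEM4-18_minus_TEM2-5 lost its call without the trend (adjusted p = 0.128) and with the mean of probe sets (-0.53, adjusted p = 0.142), and SDCBP TEM4-18_minus_TEM2-5 without the filter (adjusted p = 0.0684) and without the trend (adjusted p = 0.311). With the replicate number as a block, 14 members were called lower in TEM2-5, and the block moved no count by more than 1.5 times. Same-numbered arrays had deviations that correlated at 0.0625 to 0.0978, with 2 numbers only, so pairing was not established. Signals near the offset, as for CHD7 and CYP7B1 in TEM4-18, limit what a fold change can show.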
